A study of Mus musculus with 15 samples.

Results

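Small leucine-rich proteoglycans are secreted matrix proteins built on a core of leucine-rich repeats, and many of them carry chondroitin, dermatan or keratan sulfate chains. They bind collagen fibrils and set fibril diameter and spacing, and several also bind growth factors or innate immune receptors. In liver they are best known as products of stellate cells and portal fibroblasts in the scar matrix, while in bone, tendon and cornea they are prominent matrix components. The 9 genes described here are Dcn, Lum, Bgn, Fmod, Ogn, Aspn, Omd, Prelp and Podn, which encode decorin, lumican, biglycan, fibromodulin, osteoglycin (mimecan), asporin, osteomodulin (osteoadherin), prolargin and podocan. They were taken by gene symbol, and all 9 were measured, with 20 probe sets of the 45101 rows in the table. Where a gene had more than 1 probe set, the one with the highest mean over all arrays stands for the gene unless another is named, which left 9 of 18193 genes.

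The family was selected on measured values already known from these arrays: the rise of Dcn and Lum in HD28 cells, their fall in dHD28 cells, and the spread between the MSC arrays. Those values are therefore given below as levels and differences without a p-value. Where a count past a threshold is printed for those contrasts or for the spike-in classes, it describes the values that chose the family, the share of all genes beside it is no comparison, and nothing is read from either.

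The study used 15 mouse expression arrays, 3 in each of 5 groups, and asked how far hepatic differentiation of stromal cells can be reversed. MSC are mesenchymal stromal cells kept in low-glucose DMEM with 10% serum. HD28 are MSC taken through a hepatogenic protocol: 7 days in medium with HGF at 20 ng/ml, bFGF at 10 ng/ml and nicotinamide at 0.61 g/L, and then a second medium with oncostatin M at 20 ng/ml, dexamethasone at 1 µmol/L and an ITS+ supplement. dHD28 are HD28 cells moved back into the stromal maintenance medium. Hepatocyte is primary mouse hepatocytes grown in DMEM/F12 with 10% serum. MLC are hepatocytes moved into the stromal medium with human TGF-β1, at 10 ng/ml to day 7, 5 ng/ml to day 14 and 1 ng/ml to day 28, and in that medium alone afterwards. Strain, sex, age, tissue source and time in culture were not given in the sources used here. Nothing in the labels says that the 3 arrays of a group came from separate cultures or animals, so the p-values below measure the spread between these arrays only.

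Values are log2 RMA signals, so a difference of 1 is a 2-fold difference, and they were compared only within a probe set. The arrays fell into 2 classes by their poly-A spike-in controls, RNA of known sequence added during sample preparation. Over 27 control probe sets the mean signal was 6.81 to 7.84 in 6 arrays and 4.44 to 5.14 in the other 9. The high class was MSC 1, HD28 2, dHD28 2, Hepatocyte 1, MLC 1 and MLC 2, so every group held both classes. HD28 3 also stood apart: the mean of 9 hepatocyte marker genes was 11.6 there, against 4.19 in HD28 1 and 4.44 in HD28 2. It was also the highest HD28 array for the means of Kupffer cell (5.65), endothelial (5.24) and stellate cell markers (5.76), where HD28 1 and HD28 2 read 4.11 and 4.33, 4.22 and 4.57, and 4.83 and 5.16. In the Hepatocyte arrays the mean of the hepatocyte markers was 12.81 to 13.01, as the label says. The mean of 9 stromal markers was 9.22 to 9.41 in MSC and 4.69 to 6.10 in Hepatocyte. With each array centred on housekeeping genes instead, the share of called genes that were higher moved from 47.9% to 63.8% for HD28 against MSC, and from 52.5% to 32.7% for dHD28 against HD28. It moved from 39.2% to 56.3% for Hepatocyte against MSC and from 60.5% to 37.3% for MLC against Hepatocyte, and the median difference of all genes became 0.09, -0.16, 0.40 and -0.52 in these 4 comparisons. The called members kept their direction.

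**Figure D1:**
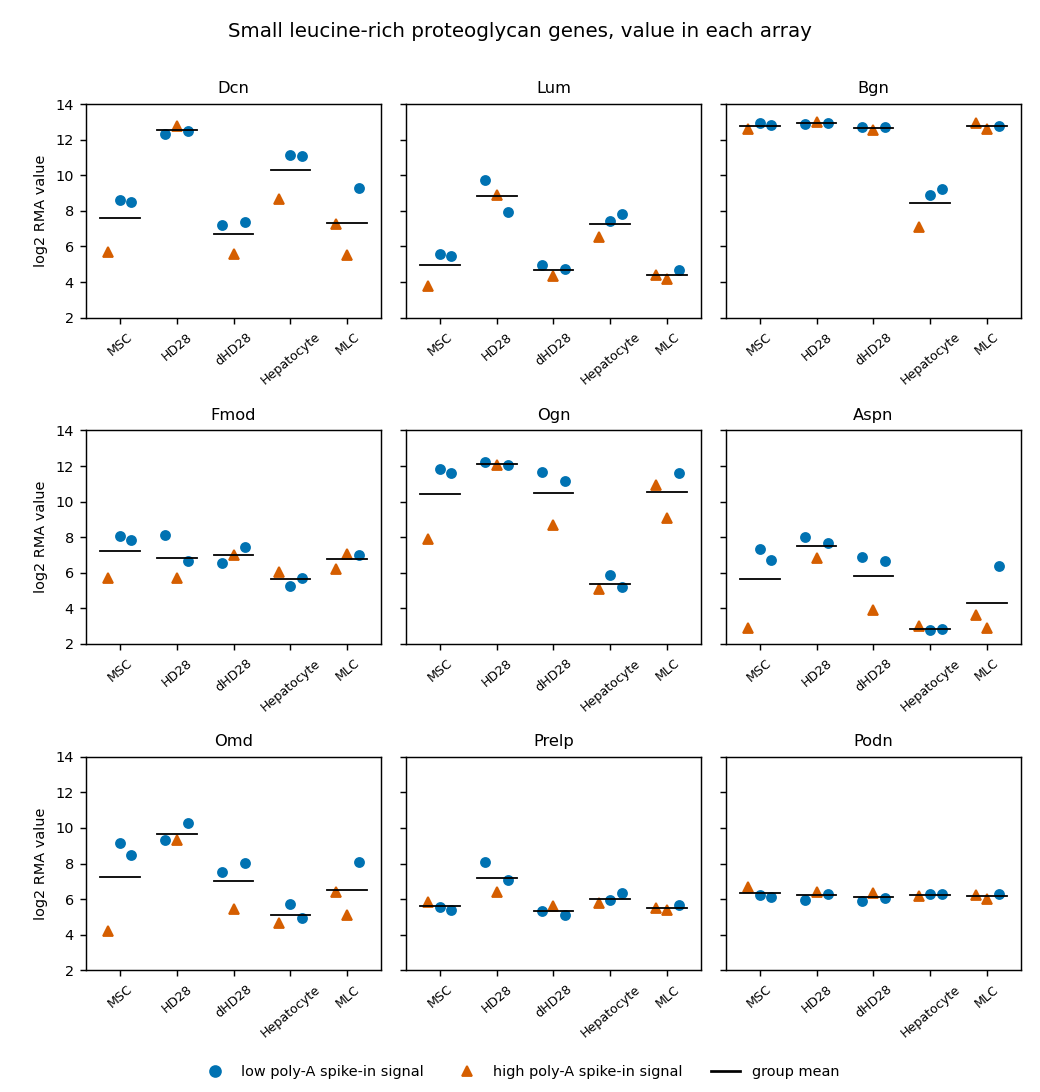
Log2 RMA value of each gene (1 probe set a gene) in each of the 15 arrays, by group on the horizontal axis. Orange triangles are the 6 arrays with high poly-A spike-in signal, blue circles the other 9, and lines are group means. Dcn and Lum peak in HD28, Bgn is level except in Hepatocyte, and Dcn, Ogn, Aspn and Omd split by spike-in class in the MSC group.

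Several of the genes lie side by side. In the RefSeq annotation Aspn, Omd and Ogn are consecutive protein-coding genes on chromosome 13, between Ecm2 and Nol8. Dcn and Lum are neighbours on chromosome 10 and are followed by Kera, and Prelp and Fmod are neighbours on chromosome 1. Podn is on chromosome 4 and Bgn on chromosome X. Of the 3 genes on chromosome 13, Aspn and Omd also varied most alike across arrays. The 250 bases upstream of the annotated starts of all 3 are shown, as given by RefSeq for GRCm38.p6. They are at chr13:49544193-49544442 for Aspn, chr13:49582212-49582461 for Omd and chr13:49607765-49608014 for Ogn, all on the plus strand, and read 5′ to 3′ toward the start. Capitals mark matches on either strand to TATAAA, the TATA box letters, or to ACANNNTGT, the core of the paired half-sites that the glucocorticoid receptor binds.
Aspn: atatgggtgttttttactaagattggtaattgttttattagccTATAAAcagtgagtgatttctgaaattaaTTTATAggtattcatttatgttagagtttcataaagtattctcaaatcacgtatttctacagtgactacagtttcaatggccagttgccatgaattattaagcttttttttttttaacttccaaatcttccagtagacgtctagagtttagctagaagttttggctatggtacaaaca
Omd: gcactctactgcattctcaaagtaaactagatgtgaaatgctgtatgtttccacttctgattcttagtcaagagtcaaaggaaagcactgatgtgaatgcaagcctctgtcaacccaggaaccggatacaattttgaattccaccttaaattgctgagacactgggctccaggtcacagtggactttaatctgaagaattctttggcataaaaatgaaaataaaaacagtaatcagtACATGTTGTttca
Ogn: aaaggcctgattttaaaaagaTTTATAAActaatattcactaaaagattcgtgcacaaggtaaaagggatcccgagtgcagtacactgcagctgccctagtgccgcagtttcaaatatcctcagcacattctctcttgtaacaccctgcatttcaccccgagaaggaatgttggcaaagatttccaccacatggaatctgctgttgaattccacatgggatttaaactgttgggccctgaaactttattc
The Aspn window holds TATAAA and, further on, its reverse complement TTTATA. In the Ogn window the same 2 runs overlap. The Omd window holds ACATGTTGT close to the start, and neither TATA run. Of 32851 mouse promoter windows of 250 bases, 12.4% hold the TATA letters and 5.84% the glucocorticoid receptor core. The letters TTCNNNGAA of STAT factors (7.02% of windows) and GTCTNGAC of SMAD factors (1.47%) were searched too and are not in these 3 windows, nor were any of the 4 motifs found in those of Bgn, Fmod, Prelp and Podn. The table matched 7 of the 9 genes. A match is only a run of letters, and a missing run says nothing about the factor.

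Decorin, the collagen-binding dermatan sulfate proteoglycan that also binds TGF-β, was highest in HD28 and next highest in Hepatocyte. Dcn (1449368_at) read 5.67, 8.62 and 8.49 in MSC arrays 1 to 3, and 12.30, 12.79 and 12.52 in HD28. It read 7.19, 5.56 and 7.40 in dHD28, 8.67, 11.13 and 11.06 in Hepatocyte, and 7.25, 5.51 and 9.26 in MLC. HD28 was thus the highest group with no overlap, Hepatocyte came next and cleared MSC, and the arrays of MSC, MLC and dHD28 overlapped. The HD28 mean was 4.94 ± 0.99 (SE, n = 3 against 3) above MSC, a 30.7-fold difference, and dHD28 lay 56.5-fold below HD28. In the low spike-in class alone HD28 was 14.4-fold above MSC, and between the single high-class arrays 139-fold. The second Dcn probe set, 1441506_at, stayed between 3.63 and 4.84 in all arrays, a low range where the lower quartile of the arrays was 3.43 to 3.69. Its means were 4.39 in Hepatocyte, 4.30 in HD28, 4.06 in MSC, 3.86 in MLC and 3.83 in dHD28. It did not show the large differences: HD28 was 0.24 above MSC, with overlapping arrays. In bulk RNA, fewer cells of a type and less RNA per cell cannot be told apart, here and for every gene below.

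Lumican, a keratan sulfate proteoglycan that spaces collagen fibrils in the cornea and elsewhere, ranked the groups in the same way at the top. Lum (1423607_at) read 3.76, 5.58 and 5.45 in MSC, 9.72, 8.88 and 7.91 in HD28, and 4.98, 4.36 and 4.76 in dHD28. It read 6.51, 7.45 and 7.83 in Hepatocyte and 4.40, 4.17 and 4.70 in MLC. HD28 did not overlap Hepatocyte, which did not overlap the 3 stromal groups, and those overlapped one another. HD28 was 3.91 ± 0.51 (SE) above MSC, 15.01-fold, and dHD28 was 17.6-fold below HD28. Unlike the Dcn values, the HD28 values of Lum spread widely, with an SD of 0.91 against 0.25, and HD28 3 was the lowest.

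Prolargin, a basic family member that links basement membranes to collagen, gave different sizes with its 2 probe sets. The set that stands for the gene, 1416322_at, read 5.85, 5.55 and 5.39 in MSC, 8.11, 6.42 and 7.05 in HD28, and 5.33, 5.60 and 5.10 in dHD28. It read 5.76, 5.94 and 6.34 in Hepatocyte and 5.52, 5.36 and 5.65 in MLC. HD28 lay above all other groups, 3.02-fold over MSC and 3.60-fold over dHD28. The other set, 1416321_s_at, read 4.11, 4.37 and 4.63 in MSC, 10.35, 6.78 and 9.45 in HD28, and 4.75, 4.16 and 4.55 in dHD28. It read 6.19, 7.58 and 8.68 in Hepatocyte and 4.38, 4.29 and 4.60 in MLC, so Hepatocyte too stood clear of the stromal groups. HD28 2, the high-class array, was the lowest HD28 array with both sets. With 1416321_s_at it lay below Hepatocyte 2 and Hepatocyte 3, so HD28 was highest there by mean only.

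**Figure D2:**
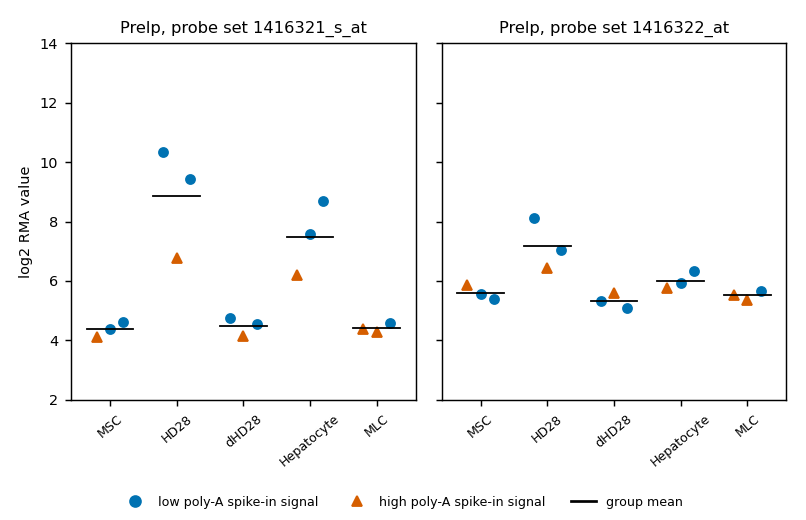
Log2 RMA value of the 2 Prelp probe sets in each array, by group. Symbols show spike-in class and lines are group means. Both sets have their highest mean in HD28. With 1416321_s_at HD28 2 (6.78) lies below Hepatocyte 2 (7.58) and Hepatocyte 3 (8.68), and the Hepatocyte arrays (6.19 to 8.68) lie above all MSC, dHD28 and MLC arrays.

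As a description of values that chose the family, these 3 genes lay past the threshold used below for a call, an adjusted p of 0.05 with at least a 2-fold difference, in HD28 against MSC, where 3.24% of all genes did so upward. No member lay past it downward, where 3.52% of all genes did, and limma found 0 members but 2657 genes lower at an unadjusted p under 0.05. On the return to stromal medium the same 3 genes lay past it downward, where 4.19% of all genes did, again as a description. No member lay past it upward, where 4.63% of all genes did, and at an unadjusted p under 0.05 there were 0 members and 2739 genes. Without HD28 3 the HD28 differences from MSC were 4.95 for Dcn, 4.37 for Lum and 1.67 for Prelp, and those of dHD28 from HD28 were -5.83, -4.60 and -1.92. Omd too lay past the threshold on the return without MSC 1 (-2.65) or with spike-in class as a block (-2.65, and -2.69 without HD28 3), which made 4 members, and Omd and Aspn did with low-class arrays alone, which made 5. Prelp in HD28 against MSC no longer passed with only the compared arrays in the fit or with the treat test against a 1.5-fold difference, which left 2 members. The median difference of the 9 genes from MSC was 1.65, and that of all genes was -0.08. On the return the medians were -1.68 and 0.05.

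Osteoglycin, a small family member first described in bone, and osteomodulin, a keratan sulfate proteoglycan of mineralised tissue, had higher means in HD28 than in MSC but did not pass the threshold, though Omd did with spike-in class as a block. Ogn (1419662_at) read 7.90, 11.83 and 11.63 in MSC and 12.22, 12.05 and 12.06 in HD28. It read 11.69, 8.66 and 11.14 in dHD28, 5.07, 5.89 and 5.18 in Hepatocyte, and 10.93, 9.05 and 11.60 in MLC. Omd (1418745_at) read 4.18, 9.15 and 8.46 in MSC, 9.34, 9.32 and 10.27 in HD28, and 7.53, 5.42 and 8.04 in dHD28. It read 4.65, 5.71 and 4.93 in Hepatocyte and 6.41, 5.09 and 8.10 in MLC. In both genes every HD28 array was above every MSC array, yet MSC 2 and MSC 3 lay far closer to HD28 than MSC 1 did. The Omd mean difference of 2.38 was 1.00 in the low class and 5.14 between the single high-class arrays. For Ogn the mean difference of 1.65 was 0.41 in the low class and 4.15 in the high class.

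Asporin, a family member that binds collagen and TGF-β and carries a run of aspartates near its start, followed Omd closely. Aspn (1416652_at) read 2.88, 7.36 and 6.72 in MSC, 8.01, 6.82 and 7.65 in HD28, and 6.89, 3.90 and 6.65 in dHD28. It read 2.99, 2.77 and 2.83 in Hepatocyte and 3.60, 2.91 and 6.38 in MLC. MSC 1 and MLC 2 thus read as low as the Hepatocyte arrays, and neighbouring groups overlapped along the whole order. The Hepatocyte values were below the lower quartile of every array, which was 3.43 to 3.69, so the differences from Hepatocyte rest on very low signals there.

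The spread within MSC was very uneven over the family. The SD of the 3 MSC arrays was 2.69 for Omd, 2.43 for Aspn, 2.21 for Ogn, 1.67 for Dcn, 1.29 for Fmod and 1.01 for Lum. It was 0.27 for Podn, 0.24 for Prelp and 0.16 for Bgn, near the median of all genes, 0.22. An SD as large as that of Omd was found in 0.0165% of genes, as large as that of Aspn in 0.033%, of Ogn in 0.066%, of Dcn in 0.264%, of Fmod in 0.868% and of Lum in 2.57%. The MSC spread was among the features that chose the family, so these shares are a description and no test. Between the lowest and highest MSC array Omd differed 31.4-fold, Aspn 22.4-fold, Ogn 15.3-fold and Dcn 7.77-fold. In all 6 of these genes MSC 1, the high spike-in array, was the low one. Whatever the size of the gap, both low-class MSC arrays lay above MSC 1 in 7 members, these 6 and Bgn, and in 36.5% of all genes.

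The same 4 leading genes split by spike-in class in other groups. In dHD28 the mean of the low class exceeded the high-class array by 2.87 for Aspn, 2.75 for Ogn, 2.37 for Omd and 1.74 for Dcn. In MLC the single low-class array exceeded the mean of the other 2 by 3.13 for Aspn, 2.88 for Dcn, 2.35 for Omd and 1.61 for Ogn. In HD28 the gap was 1.01 for Aspn, 0.49 for Omd and 0.09 for Ogn, and turned to -0.38 for Dcn. In Hepatocyte the gap was 2.43 for Dcn and 1.99 for Bgn but 0.46 for Ogn and -0.19 for Aspn. With group means in the same fit, the high class was lower than the low class by 2.20 for Aspn, 2.10 for Omd, 1.91 for Dcn and 1.75 for Ogn. These 4 of 9 members lay past the threshold downward in the high class, where 2.18% of all genes did. None lay past it upward, where 0.033% of all genes did, and limma found 0 members and 3052 genes higher at an unadjusted p under 0.05. Since the MSC spread was among the features that chose the family, these counts are a description and no test. What made the classes differ was not tested.

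**Figure D3:**
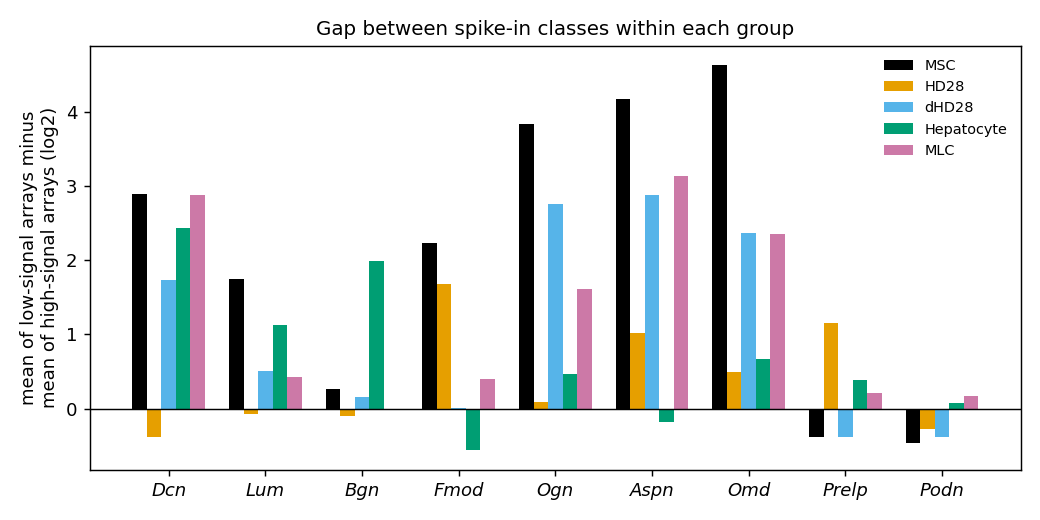
Mean of the low spike-in arrays minus mean of the high spike-in arrays in log2 units, for each gene (horizontal axis) and group (colour). The gap reaches 4.63 for Omd in MSC, is above 1.5 for Ogn, Aspn, Omd and Dcn in MSC, dHD28 and MLC, and is small in HD28 except for Fmod, Prelp and Aspn.

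Across the 15 arrays Aspn and Omd were each other's nearest genes of all 18193. After each gene was centred on its own mean, the root mean square difference between their log2 values was 0.62. Ogn was the 106th nearest gene to Aspn, at 1.28, and the 332nd nearest to Omd, at 1.36. The Ogn difference came with its Hepatocyte arrays, which lay further below the gene's mean, and with MLC 1 and MLC 2, which lay further above those of Aspn and Omd. Lum was the 4th nearest gene to Dcn, at 1.00, where the median over all genes was 2.50, while Dcn was the 51st nearest to Lum. Being neighbours did not go with likeness throughout. Bgn, on chromosome X, was nearer to Ogn (1.32, 166th) than Omd was (1.36, 203rd). The neighbours Prelp and Fmod differed by 1.14, and Fmod was only the 14590th nearest gene to Prelp and Prelp the 14475th nearest to Fmod. All these distances share the same arrays and spike-in classes, and they are descriptions without a test.

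**Figure D4:**
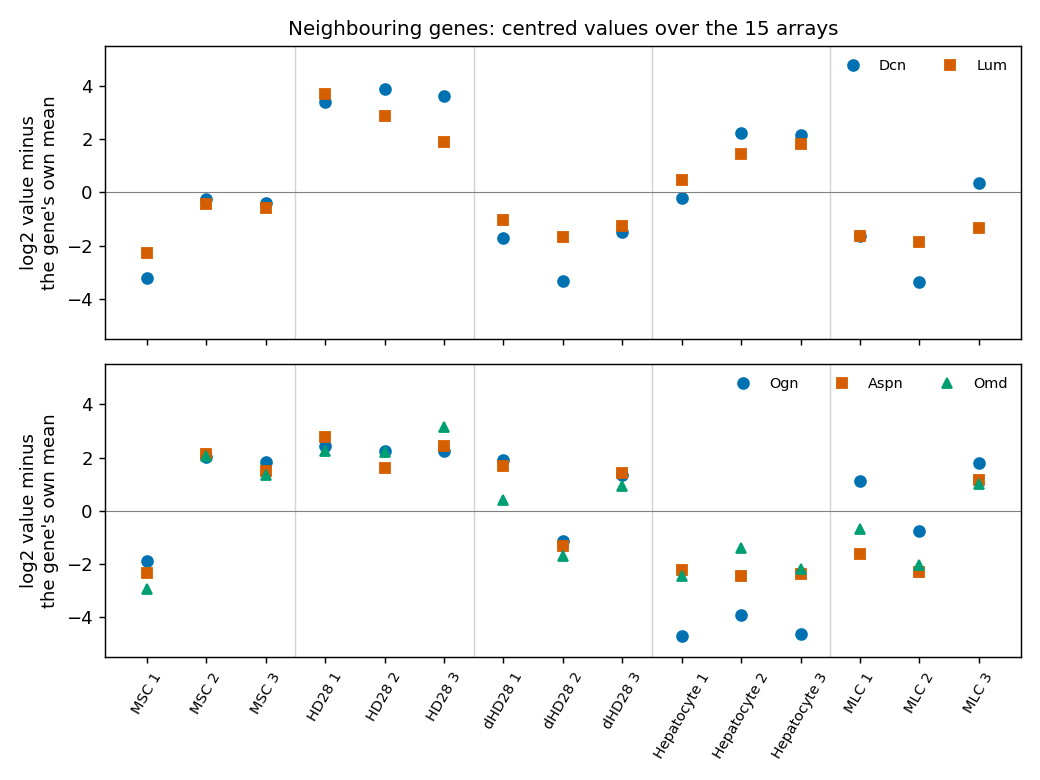
Log2 value minus the gene's own mean over the 15 arrays, for Dcn and Lum (upper panel) and Ogn, Aspn and Omd (lower panel), which are neighbours on chromosomes 10 and 13. Aspn and Omd differ by 0.62 (root mean square), and all 3 genes of the lower panel drop in MSC 1 and dHD28 2.

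The other genes nearest to Dcn were Trp53inp1, a stress-induced p53 target, at 0.81, C1s1, a complement protease, at 0.97, Selenop, the secreted selenium carrier, at 0.98, and Mertk, a receptor tyrosine kinase, at 1.01. Each was highest in HD28 and next in Hepatocyte: Selenop, for example, had means of 9.83 in MSC, 13.77 in HD28, 9.44 in dHD28, 13.59 in Hepatocyte and 9.36 in MLC. Nearest to Lum were Nrbp2 (0.49), Ehd3 (0.49), Gas6 (0.64), Ppfibp2 (0.66) and Dock10 (0.68), where the median over all genes was 1.87. Gas6, which encodes a secreted receptor ligand, had means of 6.40 in MSC, 10.63 in HD28, 6.48 in dHD28, 7.81 in Hepatocyte and 6.26 in MLC.

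The comparison of dHD28 with MSC asks what the round trip left behind. It shares all its arrays with the contrasts that chose the family. No member was called, and no gene of 18193 was called higher (0%) or lower (0%). At an unadjusted p under 0.05 limma found 48 genes higher, 157 lower and 0 members. The largest member difference was that of Dcn, -0.88 ± 0.99 (SE), with an adjusted p of 1 and overlapping arrays. Without MSC 1 it was -1.84, and that of Omd -1.81, with no call. The SE of about 1 for Dcn, Ogn, Aspn and Omd leaves differences of several fold undetectable here, so this result does not show that dHD28 and MSC are alike.

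Primary hepatocytes differed from MSC in both directions. This comparison uses the MSC arrays that the choice of the family rested on. Fits here and below with spike-in class as a block, or without MSC 1, act on the MSC spread that chose the family. Their calls and p-values are therefore descriptions and no test. Biglycan, the close relative of decorin that carries chondroitin or dermatan sulfate and signals through Toll-like receptors, read 12.60, 12.92 and 12.81 in MSC and 7.09, 8.92 and 9.25 in Hepatocyte. HD28 at 12.88, 13.01 and 12.93 and dHD28 at 12.72, 12.56 and 12.72 lay with MSC. Bgn (1416405_at) was 20.5-fold lower in Hepatocyte, a difference of -4.36 ± 0.39 (SE; limma adjusted p = 1.3e-06), with no overlap. Both of its other probe sets were called lower too. Ogn was 33.6-fold lower, -5.07 ± 0.99 (limma adjusted p = 0.00085), and its second probe set was called as well. Within the low class the Ogn difference was -6.19 and between the single high-class arrays -2.83.

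Lum was 5.04-fold higher in Hepatocyte than in MSC, 2.33 ± 0.51 (SE; limma adjusted p = 0.0021), and every array was above every MSC array. Dcn was 6.47-fold higher, 2.69 ± 0.99 (limma adjusted p = 0.04), again without overlap. The Dcn call was lost without MSC 1 (1.73, adjusted p = 0.17), HD28 2 (0.05), Hepatocyte 2 (0.13), Hepatocyte 3 (0.13) or MLC 1 (0.051). With spike-in class as a block its adjusted p was 0.0023, and the difference was 2.54 in the low class and 3.00 in the high class. So 2 members were called higher, beside 11.8% of all genes, and 2 lower, beside 18.3%. The median over the 9 members was -1.56 and over all genes 0.04.

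Fibromodulin, a keratan sulfate collagen binder abundant in tendon, and the 2 partners Aspn and Omd lay lower in Hepatocyte without passing the test. Fmod (1415939_at) read 5.73, 8.04 and 7.86 in MSC, 8.11, 5.70 and 6.64 in HD28, and 6.57, 7.01 and 7.46 in dHD28, all overlapping. It read 6.03, 5.25 and 5.68 in Hepatocyte, a difference from MSC of -1.56 ± 0.63 (SE; limma adjusted p = 0.059). Of its 6 probe sets 4 were called lower, with 1456084_x_at at -3.32 (adjusted p = 0.0067). The suffix marks 5 of the 6 as sets whose probes may match other transcripts. Aspn differed by -2.79 ± 1.13 (adjusted p = 0.061) and Omd by -2.17 ± 1.12 (adjusted p = 0.14). Their MSC 1 values lay among or next to the Hepatocyte values. With spike-in class as a block all 3 were called, at adjusted p = 0.034 for Fmod, 0.0046 for Aspn and 0.024 for Omd. Without MSC 1 they were called as well, with differences of -2.30 for Fmod, -4.18 for Aspn and -3.71 for Omd, so that 5 members rather than 2 were lower. Fmod was also called without HD28 1 (adjusted p = 0.031) or HD28 2 (0.041), and Aspn without dHD28 2 (0.045) or MLC 3 (0.041). In the single pair of high-class arrays the differences were 0.30, 0.11 and 0.47. The block takes the same class shift for every group, while the Aspn gap between the classes was 4.17 in MSC and -0.19 in Hepatocyte. As said above, the calls with the block or without MSC 1 are descriptions.

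Prelp and Podn were not called in this comparison, at 0.42 ± 0.33 (limma adjusted p = 0.34) and -0.10 ± 0.18 (adjusted p = 0.68). With 1416321_s_at Prelp was called higher, 3.12 ± 0.74 (limma adjusted p = 0.0041), so the call turns on the probe set. Podn (1435180_at), which encodes a growth-restraining matrix protein of vessel walls, read between 5.91 and 6.65 in all 15 arrays. It is 1 probe set and was level in every group.

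The Hepatocyte arrays also carried markers of other liver cells. Of 10 Kupffer cell and macrophage markers 9 were called higher than in MSC, and of 9 endothelial markers all 9 were. Of 9 stellate cell markers 5 were called higher and 1 lower. The mean of the stellate markers was 5.22, 6.81 and 6.86 in Hepatocyte 1 to 3 and 5.02 to 5.05 in MSC. The endothelial mean was 6.11, 7.18 and 7.29 and the Kupffer mean 6.42, 7.89 and 8.17. Lrat, the retinol esterifying enzyme of stellate cells, read 3.39, 7.97 and 7.04, and Reln, another stellate marker, 7.52, 9.15 and 9.80. Both were picked after their values were seen. Pdgfrb, also on the stellate list, was lower, at 3.48, 5.32 and 6.06 against 11.25, 11.46 and 11.32 in MSC. Des, Hgf and Ngfr of that list differed little from MSC. Hepatocyte 1, the only high spike-in array of its group, was the lowest array for these marker means. It was also the lowest for 7 of the 9 members (all but Fmod and Aspn) and for 39.6% of all genes. The part of these cells in the Dcn and Lum values was not tested.

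MLC against Hepatocyte shares its Hepatocyte arrays, with the opposite sign, with the comparison above, so opposite directions in the 2 are not independent. Its differences use no array of the contrasts that chose the family, while its SE and p-values come from a spread estimated over all 15 arrays. Bgn rose to 12.92, 12.63 and 12.75 in MLC, 20.3-fold over Hepatocyte, 4.35 ± 0.39 (SE; limma adjusted p = 1.3e-06). Ogn was 35.4-fold higher, 5.15 ± 0.99 (limma adjusted p = 0.00074), and neither gene's groups overlapped. Lum was 7.16-fold lower, -2.84 ± 0.51 (limma adjusted p = 0.00045), without overlap. Dcn was 7.70-fold lower, -2.95 ± 0.99 (limma adjusted p = 0.025), although MLC 3 at 9.26 exceeded Hepatocyte 1 at 8.67. That call was lost without Hepatocyte 2 (-2.52, adjusted p = 0.087), Hepatocyte 3 (-2.56, 0.088), MLC 1 (-2.90, 0.064) or MLC 2 (-2.03, 0.12). With spike-in class as a block the Dcn difference was -2.31 (adjusted p = 0.0073).

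So 2 members were called higher in MLC, beside 18.4% of all genes, and 2 lower, beside 12%. The median over the members was 1.10 and over all genes -0.06. Aspn and Omd differed by 1.44 ± 1.13 (limma adjusted p = 0.33) and 1.43 ± 1.12 (adjusted p = 0.32). With spike-in class as a block both were called, at 2.17 (adjusted p = 0.022) and 2.13 (adjusted p = 0.028), and 4 members were then higher. In the low class, which holds only 1 MLC array, Aspn was 3.58 higher, and in the high class 0.27. Fmod read 6.21, 7.04 and 7.02 in MLC, above every Hepatocyte array, but its difference of 1.10 ± 0.63 was not called (limma adjusted p = 0.17), and 1 of its 6 probe sets was. It was called with only the MLC and Hepatocyte arrays in the fit (limma adjusted p = 0.019), which made 3 members higher. Prelp was not called at -0.50 ± 0.33 (limma adjusted p = 0.23) and was called lower with 1416321_s_at, -3.06 ± 0.74 (adjusted p = 0.0046).

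**Figure D5:**
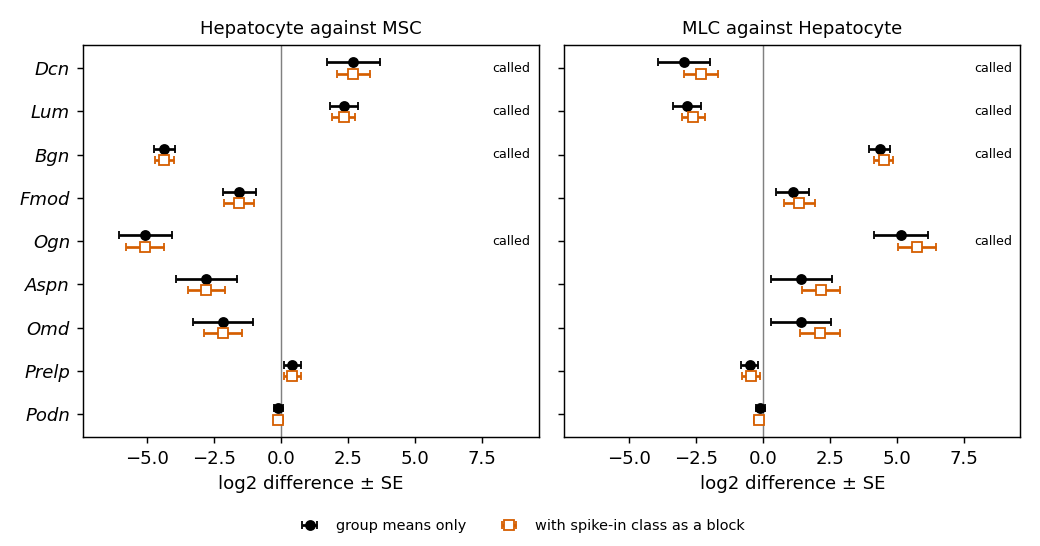
Log2 difference with its SE for each gene in Hepatocyte against MSC (left) and MLC against Hepatocyte (right), n = 3 arrays a group. Black circles are the fit of group means and orange squares the fit that adds spike-in class as a block, and "called" marks genes past the threshold in the first. Dcn and Lum lie opposite to Bgn and Ogn in both panels, at 2.69 and 2.33 against -4.36 and -5.07 on the left.

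MLC against MSC shares its MSC arrays with the contrasts that chose the family. No member and no gene was called higher (0%) or lower (0%). Limma found 18 genes higher, 73 lower and 0 members at an unadjusted p under 0.05. The largest member difference was -1.36 ± 1.13 (SE) for Aspn, with an adjusted p of 1. Without MSC 1 it was -2.75, and that of Omd -2.27, with no call. Bgn differed by -0.01 ± 0.39.

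The machinery that builds and cuts these proteoglycans was followed through lists of related genes. Of 7 other measured family members, among them Kera, Epyc and Chad, none was called in any of the 6 comparisons, and limma found at most 1 in any of them at an unadjusted p under 0.05. The means of Kera, Epyc and Ecm2 were not above the lower quartile of the arrays in any group, so a missing call says little about these genes. The largest difference was -0.49 for Chadl in dHD28 against HD28. Of 8 proteoglycan genes outside the family Srgn, the core protein of serglycin, was 10.8-fold higher in HD28 than in MSC and Agrn, agrin, 2.29-fold higher. Both were called, beside 3.24% of all genes. In Hepatocyte against MSC 2 of the 8 were called higher and 1 lower, beside 11.8% and 18.3% of all genes. In MLC against Hepatocyte 1 was called higher and 2 lower, beside 18.4% and 12%. Vcan, versican, was the 1 called lower in Hepatocyte than in MSC (limma adjusted p = 6.4e-06). It was also the 1 called higher in MLC than in Hepatocyte (limma adjusted p = 6.3e-06). Its mean was 8.92 in MSC and in MLC and 2.75 in Hepatocyte, below the lower quartile of the arrays, so no size is given.

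Of 21 genes of chondroitin and dermatan sulfate synthesis none was called in HD28 against MSC, where Dcn was higher, and limma found 2 higher and 0 lower at an unadjusted p under 0.05. In Hepatocyte against MSC 10 were lower and 2 higher, with a list median of -0.68. The shares of all genes given above, 18.3% lower and 11.8% higher there and 18.4% higher and 12% lower in MLC against Hepatocyte, stand beside this and the next lists, and nothing is called particular to a list. Dse, the epimerase that makes dermatan sulfate, was 20.6-fold lower, Chsy1, a chain polymerase, 16.1-fold lower and Chst11, a sulfotransferase, 14.8-fold lower. In MLC against Hepatocyte 10 were higher and 1 lower, with a median of 0.81, and Dse was 19.4-fold higher. Of 12 genes of keratan sulfate synthesis Chst1, the keratan sulfate sulfotransferase, was 13.7-fold lower in HD28 than in MSC and 10.4-fold higher in dHD28 than in HD28, opposite to Lum. B4galt4, which extends the chain, was 3.09-fold higher in HD28. Of all genes 3.24% were called higher and 3.52% lower in HD28 against MSC, and 4.63% higher in dHD28 against HD28.

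Of 13 fibrillar and associated collagens 1, Col11a1, was called in HD28 against MSC, 7.14-fold higher, beside 3.24% of all genes. In Hepatocyte against MSC 10 were lower and 1 higher, with a median of -5.39, and Col1a1 was 460-fold lower. In MLC against Hepatocyte 10 were higher and 1 lower, with a median of 5.19. Of 13 proteases reported to cut these proteins Mmp3 (6.50-fold) and Mmp2 (2.97-fold) were higher in HD28 than in MSC, beside 3.24% of all genes. On the return 4 were lower, beside 4.19% of all genes: Mmp13 (54.6-fold), Mmp3 (8.38-fold), Mmp2 (3.88-fold) and Htra1 (2.46-fold). Mmp13 was also lower in the high spike-in class, by 3.03 on the log2 scale (SE 0.77). Of 15 growth factor and receptor genes whose products the family binds, none was called in those 2 contrasts, and limma found 4 in each at an unadjusted p under 0.05. In Hepatocyte against MSC 7 were lower and 3 higher: Tgfb2 was among the lower genes, with a Hepatocyte mean of 3.20 that lies below the lower quartile of the arrays, and Egfr was 3.49 higher on the log2 scale.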

How the data were processed

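Total RNA from the 15 samples was hybridised to Affymetrix mouse arrays, 1 array a sample. The authors deposited log2 expression values per probe set; the submitters' processing notes name RMA with no version, and the log base was inferred from the range (1.32 to 14.1). RMA normalises between arrays, which can shrink a shift shared by most genes. No detection call was used. Of 45101 rows 34945 carried exactly 1 gene symbol, 932 several, 9160 none and 64 were controls. Each of 18193 genes was represented by its brightest probe set on average. Group means were fitted to all 15 arrays with limma 3.58.1 (R 4.3.3; lmFit, eBayes, 10 residual df). P-values are two-sided and Benjamini-Hochberg adjusted over all genes, and a gene was called at an adjusted p under 0.05 with at least a 2-fold difference. The fit was tested on simulated data. With 3 arrays a group, the number of arrays limits the precision.

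The members and gene lists were chosen with earlier results of these data known. Named genes were all 9 members, the 4 called genes of each list with the largest change (the 2 largest where none was called), and the 5 genes nearest to Dcn and to Lum; fewer are printed where a list is summarised. Lrat and Reln were picked from the stellate marker list after their values were seen. Same-numbered arrays correlated in their deviations in dHD28 against HD28 (0.321, 0.275 and 0.125) and more weakly in Hepatocyte against MSC (0.252, 0.232 and 0.0686). In both, the arrays of each pair share a spike-in class. In the other comparisons not every pair does, and the signs were mixed. The correlations were -0.286, -0.64 and 0.689 in dHD28 against MSC, and -0.21, -0.678 and 0.773 in MLC against MSC. Motifs were searched in 250 bases upstream of RefSeq starts, GRCm38.p6. Alternatives covered the probe set rule, dim genes, normalisation, spread estimate, threshold, blocks and each array left out.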

Additional observations from a re-analysis of the deposited data

Results flagged for a closer look

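In Bgn and Ogn the array-by-array differences on the move into stromal medium had opposite signs for HD28 and for Hepatocyte. Only members of the family were searched for this. The share of all genes with the same pattern was not counted, so nothing is called particular to these genes. The Bgn difference from HD28 to dHD28 was smaller than its SE. From HD28 to dHD28 every array was lower for Bgn with 1416405_at, by -0.27 on the log2 scale (SE 0.39), while with 1437889_x_at the arrays overlapped, and from Hepatocyte to MLC every array was higher, by 4.35. For Ogn the differences were -1.61 and 5.15. These contrasts also differ in TGF-β1, which MLC received, and the HD28 to dHD28 differences were not called. The difference between the contrasts was not tested.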

How the results depend on the processing

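The calls of Lum, Bgn and Ogn in the Hepatocyte comparisons held under every alternative run, and no called member changed direction in any. Over all member values and alternatives 1566 kept their side of the threshold, 40 gained a call and 14 lost one. Leaving out 1 array, the members lower in Hepatocyte than in MSC numbered 2 to 5 and those higher 1 to 2, the members lower in MLC than in Hepatocyte 1 to 2, and the members lower in dHD28 than in HD28 3 to 4. The genes called in HD28 against MSC ranged from 853 (without MSC 1) to 1256, around 1231, and in dHD28 against HD28 from 1162 to 1920, around 1605. Members lower in Hepatocyte than in MSC numbered 4 with the mean of probe sets, with every probe set tested or with dim genes left out, and 5 with array weights, the spike-in class block (with or without HD28 3) or low-class arrays only. Members higher there numbered 1 with only the arrays compared or with the treat test against a 1.5-fold difference, and that test also left 1 member lower in MLC. Both numbered 3 with the mean of probe sets, with every probe set tested or with quantile normalization again. In the last setting the brightest probe set was picked anew. Prelp there read 3.32 in Hepatocyte against MSC and -3.22 in MLC against Hepatocyte. In the deposited values these were 3.12 and -3.06 with 1416321_s_at, and 0.42 and -0.50 with 1416322_at. Members higher in MLC than in Hepatocyte numbered 4 with the class block (with or without HD28 3) or low-class arrays only and 3 with every probe set tested or only the arrays compared, and members lower in dHD28 than in HD28 numbered 5 with low-class arrays only. Genes called in HD28 against MSC were 1948 with no fold limit, 429 with treat and 789 with low-class arrays only; in dHD28 against HD28 they were 2562 and 587 with the first 2; in MLC against Hepatocyte they were 8488 with no fold limit. The causes of these changes were not tested beyond the construction of each alternative. With the replicate number as a block (the replicate block) the genes called were 1301 in HD28 against MSC and 1691 in dHD28 against HD28, and no member call changed. Housekeeping centring used 6 of the 8 genes planned.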

Other observations

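Several matrix genes outside the family also read lower in the high spike-in arrays. Of the 13 proteases listed Mmp13, a collagenase, was called lower in the high class, by 3.03 on the log2 scale (SE 0.77), and it read 3.27, 9.06 and 9.66 in MSC 1 to 3. Of the collagens Col12a1 and Col3a1 were called lower in that class, of the chondroitin and dermatan sulfate genes Csgalnact1 and Dsel, of the receptors and growth factors Tlr4 and Tgfb2, and of the stromal markers Pdgfra. Vcan was the only gene so called of the 8 proteoglycan genes outside the family. None of the 12 keratan sulfate synthesis genes and none of the 7 other family members was called by class (limma, 2 and 0 at an unadjusted p under 0.05), while among all genes 2.18% were called lower in the high class. These values use the same arrays as the members' own gaps.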
